A study of Mus musculus with 8 samples.

Results

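Genes of mitochondrial fatty acid oxidation and of its control by PPAR were followed in MB21 cells. They were chosen by name, with earlier results of these data known: Cpt1a, Cpt2, Acadm, Acadl, Acadvl, Hadha, Hadhb, Acot2, Pdk4 and Ppara. They are 10 of the 55416 gene identifiers in the count table, and 8 of them had enough reads to be tested. MB21 is a mouse medulloblastoma line, a tumour of the cerebellum, and all of its samples carry a ptch mutation. Cells grew without attachment in DMEM/F12 medium with B27 supplement and were kept for 5 days with 10 uM of the benzarone derivative DS-1-38 (called DS38 here) or with its vehicle (called DMSO), and messenger RNA of 4 libraries per treatment was sequenced. Library totals ran from 17142397 to 28476019 counts. No label says whether the 4 libraries of a treatment were separate cultures, so the p-values speak only to the spread among these libraries, part or all of which may be technical, and a single line gives no measure of how other tumours would differ.

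Long-chain fatty acids enter mitochondria as carnitine esters. Cpt1a makes the ester at the outer membrane, the step that limits the flux and that malonyl-CoA inhibits, and Cpt2 turns it back into acyl-CoA inside. Acyl-CoA dehydrogenases for very long, long and medium chains (Acadvl, Acadl and Acadm) take the first step of each round of shortening, and the trifunctional protein, a complex of alpha (Hadha) and beta (Hadhb) subunits, performs the following steps on long chains. Acot2 is a matrix thioesterase that frees the fatty acid from its coenzyme A, Pdk4 is a kinase that shuts pyruvate dehydrogenase off, and Ppara is the nuclear receptor known in liver and heart for raising many of these genes, Cpt1a and Pdk4 among them. In the brain fatty acid oxidation is known mainly from astrocytes.

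Hadha and Hadhb lie head to head, so the stretch between their starts serves as the upstream region of both, and it is shown because their transcripts moved in opposite directions. In the RefSeq promoter table (build GRCm38.p6), which held all 10 genes, the start sites were 273 bases apart, and the 300-base windows around them shared 228 bases. Windows overlapping one of another gene on the opposite strand were found for 11.9% of 27025 genes and for no other of the 10. The shared stretch, chr5:30155003-30155230, is written on the plus strand, the strand of Hadhb, with the Sp1 box GGGCGG in capitals.
Hadha and Hadhb: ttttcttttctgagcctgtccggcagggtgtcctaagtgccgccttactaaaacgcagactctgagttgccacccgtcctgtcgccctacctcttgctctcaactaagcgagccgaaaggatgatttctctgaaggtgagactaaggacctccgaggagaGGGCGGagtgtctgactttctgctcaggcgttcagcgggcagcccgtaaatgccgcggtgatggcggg

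The 250 bases upstream of Cpt1a (chr19:3323051-3323300, plus strand) and of Acot2 (chr12:83987611-83987860, plus strand), the tested genes with the largest rise and the largest fall, are given for comparison. Capitals mark every match to the motifs searched, which in these windows were TGACCT (the nuclear receptor hexamer AGGTCA read on the other strand), CCGCCC (the Sp1 box on the other strand) and the CCAAT box, written ATTGG on the other strand.
Cpt1a: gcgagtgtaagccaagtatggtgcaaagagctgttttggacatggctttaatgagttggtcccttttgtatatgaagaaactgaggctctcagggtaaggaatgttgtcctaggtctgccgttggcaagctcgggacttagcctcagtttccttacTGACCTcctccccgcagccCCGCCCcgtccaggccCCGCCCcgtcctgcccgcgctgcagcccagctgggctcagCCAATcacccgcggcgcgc
Acot2: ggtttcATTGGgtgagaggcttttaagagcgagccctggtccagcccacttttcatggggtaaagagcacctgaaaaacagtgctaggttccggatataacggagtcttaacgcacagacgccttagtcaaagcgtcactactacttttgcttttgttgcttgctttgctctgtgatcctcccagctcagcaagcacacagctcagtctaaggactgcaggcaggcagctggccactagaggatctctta

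Motifs were searched on both strands of the windows from 250 bases before to 50 bases after each start. A full PPAR response element, the hexamer AGGTCA repeated in the same orientation with any single base between the copies, was in none of the 10 windows and in 0.0396% of the 32851 promoters of the table. The hexamer on its own was in 3 of the 10 (Acadm, Acadvl and Cpt1a), against 16.3% of all promoters. The Sp1 box was in 6 (Acadl, Cpt1a, Cpt2, Hadha, Hadhb and Ppara), against 35.7%, and CCAAT was in 3 (Acot2, Cpt1a and Pdk4), against 37.4%. The palindromic Nrf1 site was in the Ppara window, against 0.971% of all promoters. Neither TATAAA (13.6% of all promoters) nor TCAAGGTCA (0.423%), which contains the hexamer, occurred in any of the 10. The 10 windows held 9 to 34 CpG pairs, with a median of 18.5 against 7 over all promoters. These matches describe letters in a window and say nothing of what binds there, and response elements of PPAR can lie farther from a start than these windows reach.

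Of the 8 tested genes, Cpt1a, Cpt2, Acadl and Hadha rose with DS38, Hadhb and Acot2 fell, and Acadm and Acadvl did not pass the test. The test was edgeR's quasi-likelihood test with Benjamini-Hochberg adjustment over all 15133 genes tested, at a threshold of 0.05. The 4 rises compare with 18.8% of all tested genes called higher, and the 2 falls with 20.7% called lower, out of 39.5% called in either direction. The median log2 fold change of the 8 was 0.20 and that of all tested genes -0.01, while the medians of the absolute log2 fold change were 0.23 and 0.18. Every DS38 library lay above every DMSO library for 3 genes (Cpt1a, Cpt2 and Hadha), beside 17.3% of all tested genes, and below for 3 (Acadm, Hadhb and Acot2), beside 18.8%. In bulk RNA, fewer cells of a type and less RNA per cell cannot be told apart. Values are CPM, counts scaled to a common library total after TMM adjustment, unless raw counts are named.

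**Figure D1:**
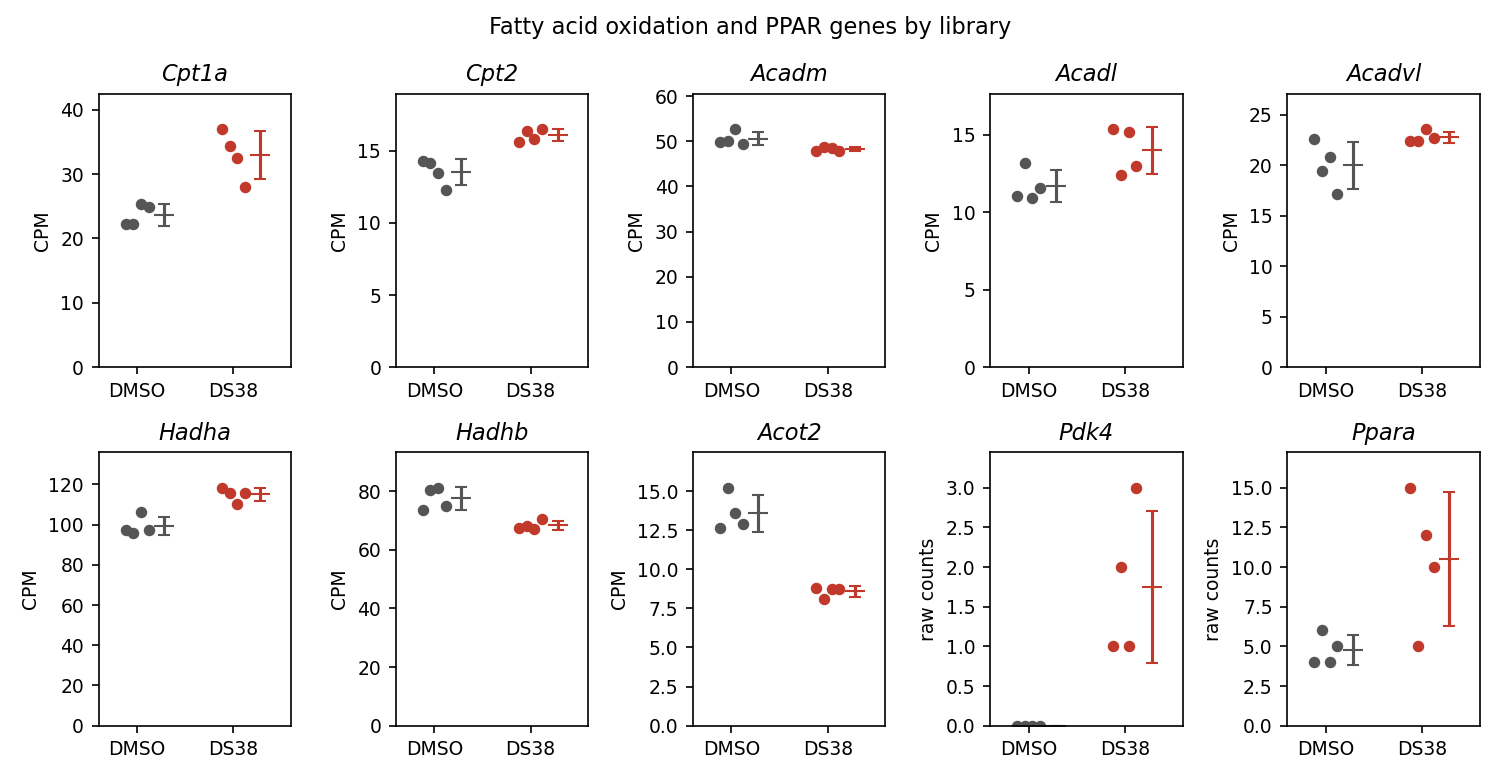
Expression of the 10 genes in each library, one panel per gene, with CPM on the vertical axis for the 8 tested genes and raw counts for Pdk4 and Ppara. Points are the 4 libraries of DMSO (grey) and of DS38 (red) and bars are mean ± SD. Cpt1a, Cpt2 and Hadha lie higher in every DS38 library than in any DMSO library, and Hadhb, Acot2 and, by a small margin, Acadm lie lower.

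At the carnitine step, both transferase genes were higher with DS38. Cpt1a stood at 22.2, 22.2, 25.4 and 24.9 CPM in DMSO replicates 1 to 4 and at 37.0, 34.4, 32.5 and 28.05 CPM in DS38 replicates 1 to 4. The groups did not overlap, and the DS38 libraries spread more widely than the DMSO ones. The means were 23.7 ± 1.70 and 33.0 ± 3.76 CPM (SD, n = 4 each), a 1.40-fold rise (edgeR log2 fold change 0.49, SE 0.077, adjusted p = 0.000101), and the adjusted p was at most 0.000825 in every alternative run. Cpt2 stood at 14.3, 14.2, 13.4 and 12.3 CPM in DMSO and at 15.6, 16.3, 15.8 and 16.5 CPM in DS38. Again no DS38 library was as low as any DMSO library, with a smaller shift of 1.18-fold (edgeR log2 fold change 0.24, SE 0.071, adjusted p = 0.0108).

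The 3 acyl-CoA dehydrogenase genes showed small differences, of which Acadl alone passed. Acadl, for long chains, stood at 11.1, 13.2, 10.9 and 11.6 CPM in DMSO and at 15.4, 12.4, 15.2 and 13.01 CPM in DS38, so that DMSO replicate 2 lay above DS38 replicates 2 and 4. Its log2 fold change of 0.25 ± 0.090 SE (edgeR adjusted p = 0.0332) was no longer called without DMSO replicate 1 (adjusted p = 0.0826), DMSO replicate 3 (0.0931), DMSO replicate 4 (0.0630), DS38 replicate 1 (0.109) or DS38 replicate 3 (0.0914), nor without both libraries numbered 1 (0.206). Acadvl, for very long chains, stood at 22.6, 19.4, 20.8 and 17.1 CPM in DMSO and at 22.4, 22.4, 23.6 and 22.7 CPM in DS38. DMSO replicate 1 reached the DS38 values, and the other three DMSO libraries lay below them.

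The log2 difference of Acadvl was 0.18 ± 0.074 SE (edgeR adjusted p = 0.0559), with a 95% interval of 0.04 to 0.33 for this gene on its own. It passed without DMSO replicate 1 (adjusted p = 0.0110) and in 5 other alternatives, listed in the closing section. Exons of Acadvl overlap those of Dvl2, a Wnt pathway gene on the opposite strand, and 24% of the 50-base windows of its longest coding transcript also occur in Dvl2 transcripts. Dvl2 had a log2 difference of -0.10 (edgeR adjusted p = 0.0809), and since the strand setting of the counting is not given in the sources used here, its part in the Acadvl value was not tested. Acadm, for medium chains, stood at 49.9, 50.03, 52.7 and 49.5 CPM in DMSO and at 47.8, 48.8, 48.6 and 47.9 CPM in DS38. All DS38 values were lower, by a margin too small for the test (log2 difference -0.06 ± 0.043 SE, 95% interval -0.15 to 0.02, edgeR adjusted p = 0.243).

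The subunit genes of the trifunctional protein moved apart. Hadha stood at 97.3, 96.0, 106 and 97.5 CPM in DMSO and at 118, 116, 110 and 116 CPM in DS38, above every DMSO library in each case. It rose 1.16-fold (edgeR log2 fold change 0.22, SE 0.042, adjusted p = 0.000553). Hadhb stood at 73.7, 80.5, 81.2 and 74.8 CPM in DMSO and at 67.6, 68.2, 67.2 and 70.5 CPM in DS38, below every DMSO library. It fell by 0.18 on the log2 scale (± 0.044 SE, edgeR adjusted p = 0.00320). The direction of both held under all 18 alternatives run, with log2 fold changes of 0.17 to 0.28 for Hadha and -0.21 to -0.12 for Hadhb, all past the threshold.

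The ratio of Hadha to Hadhb counts within a library needs no scaling between libraries. It was 1.32, 1.19, 1.31 and 1.30 in DMSO replicates 1 to 4 and 1.75, 1.70, 1.64 and 1.64 in DS38 replicates 1 to 4. The lowest DS38 ratio thus lay well above the highest DMSO ratio. The mean ratio went from 1.28 ± 0.0592 to 1.68 ± 0.0525 (SD, n = 4 each), a log2 difference of 0.39 ± 0.041 SE. The ratio was chosen after both genes were seen to separate the groups in opposite directions, which fixes that the ratios separate too, so it is given as a description with no p. Leaving out 1 library at a time gave log2 differences of 0.36 to 0.41.

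The Hadhb count has a limit of its own, because 61.5% of the 50-base windows of its longest coding transcript also occur in a transcript of the predicted gene Gm13910. How reads that match several places were counted is not given in the sources used here. Gm13910 itself had 139 counts in the 4 DMSO libraries and 111 in the 4 DS38 libraries, against 6647 and 6120 for Hadhb, and its log2 difference was -0.37 ± 0.20 SE (edgeR adjusted p = 0.150). Of Hadha, 0.655% of windows were shared, with Garem2 on the opposite strand, a gene that fell (log2 fold change -0.35, edgeR adjusted p = 0.00162).

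**Figure D2:**
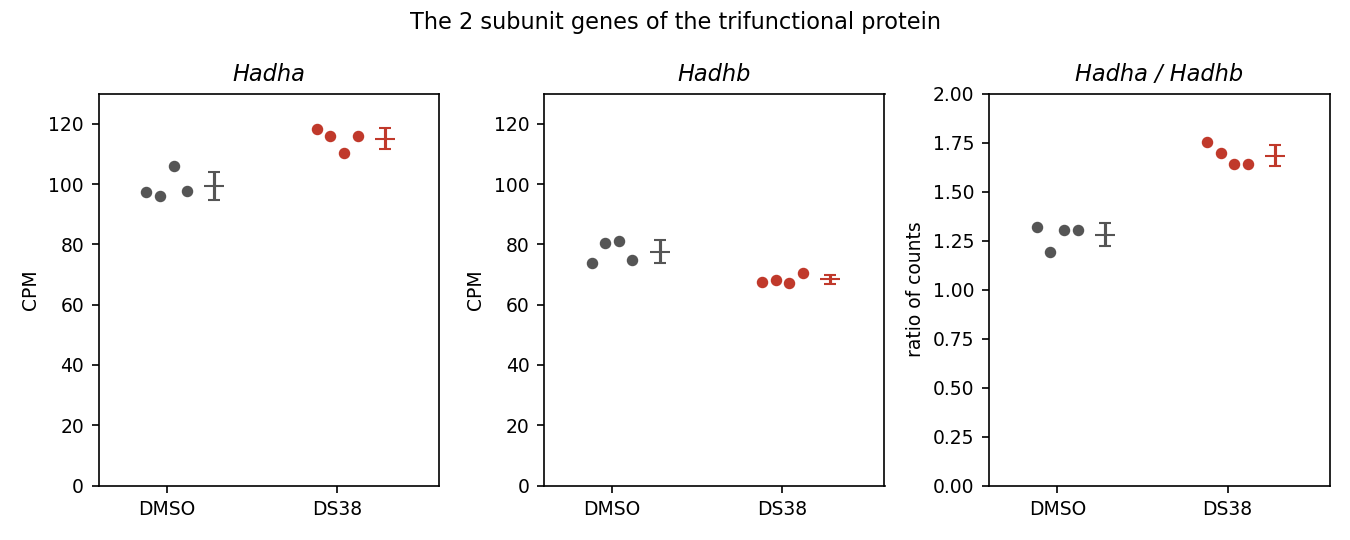
Hadha and Hadhb in CPM and the ratio of their raw counts, per library. Points are the 4 libraries of DMSO (grey) and of DS38 (red) and bars are mean ± SD. Hadha is higher and Hadhb lower with DS38, and the ratio lies at 1.19 to 1.32 in DMSO and at 1.64 to 1.75 in DS38.

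The thioesterase gene Acot2 had the largest change of the 8 tested genes. It stood at 12.6, 15.2, 13.6 and 12.9 CPM in DMSO and at 8.79, 8.09, 8.76 and 8.74 CPM in DS38. All DS38 libraries lay far below all DMSO libraries and close to each other. The means of 13.6 ± 1.17 and 8.59 ± 0.340 CPM (SD, n = 4 each) gave a 1.58-fold fall (edgeR log2 fold change -0.66, SE 0.085, adjusted p = 7.40e-06), which stayed between -0.71 and -0.60 under the 18 alternatives.

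Acot1 encodes the cytosolic relative of Acot2, and 24.5% of the 50-base windows of the longest coding Acot2 transcript occur in it, so the genes can share reads. Acot1 stood at 6.42 ± 0.467 and 6.78 ± 0.726 CPM (SD, n = 4 each), too close to call (edgeR log2 difference 0.08, SE 0.11, adjusted p = 0.609). The ratio of Acot2 to Acot1 counts was 1.88, 2.63, 2.00 and 2.02 in DMSO and 1.17, 1.30, 1.20 and 1.44 in DS38, without overlap. Its log2 difference was -0.73 ± 0.13 SE, again a description of a ratio chosen after the values were seen. Of the 12 other thioesterase genes listed, 5 had enough reads to test. Of these, 20% were called, beside 39.5% of all tested genes, with 1 rise and 0 falls around a median log2 fold change of 0.05. The riser was Acot7 (log2 fold change 0.11, edgeR adjusted p = 0.0371), which missed the threshold when DMSO replicate 1 (adjusted p = 0.0635), 3 (0.0731) or 4 (0.0844) or DS38 replicate 2 (0.0636) or 4 (0.115) was left out.

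**Figure D3:**
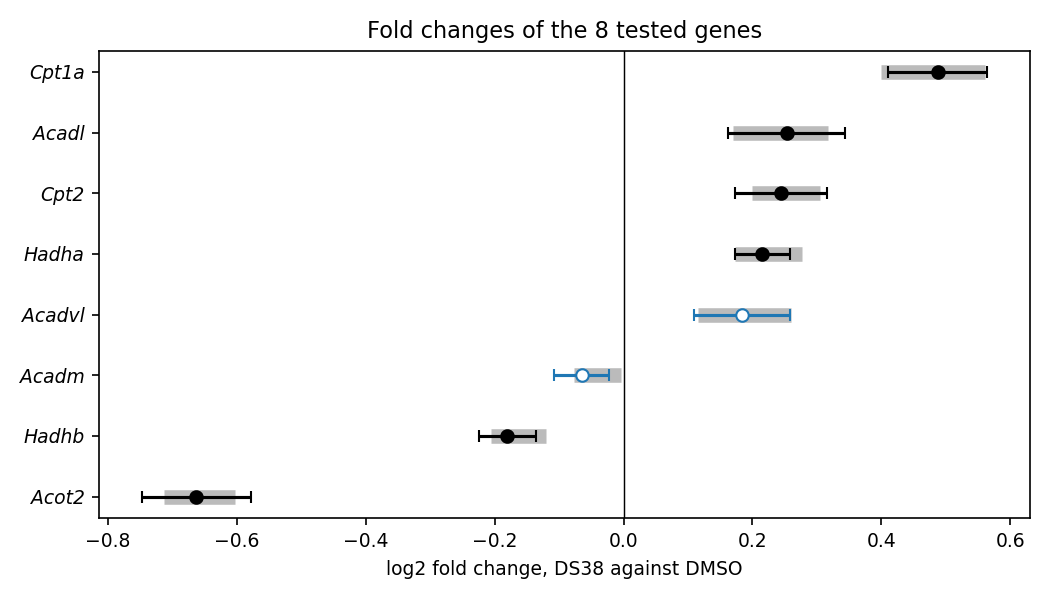
Log2 fold change of DS38 against DMSO for the 8 tested genes, in order of size. Points are the edgeR estimates with their SE (filled, past the threshold; open, not past it) and grey bars span the alternatives run. Cpt1a lies highest at 0.49 and Acot2 lowest at -0.66, and Hadha and Hadhb lie on opposite sides of 0.

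Ppara and Pdk4 were close to silent. Ppara had 4, 6, 4 and 5 counts in DMSO replicates 1 to 4 and 15, 5, 12 and 10 counts in DS38 replicates 1 to 4. DS38 replicate 2 lay within the DMSO range, and the other three lay above it. The summed 19 and 42 counts correspond to 0.216 and 0.479 CPM of the plain library totals, a ratio of 2.21. The two-sided exact permutation test of CPM did not separate the groups (p = 0.114, the same when adjusted over the 4 exact tests made, those of both ratios included), and edgeR without the filter on low counts gave a log2 difference of 1.09 ± 0.46 SE with adjusted p = 0.0815. Ppara entered the test in some leave-one-out runs. It passed without DS38 replicate 2, the library within the DMSO range (log2 fold change 1.44, edgeR adjusted p = 0.00927). It did not pass without DMSO replicate 1 (edgeR adjusted p = 0.148), 2 (0.0930), 3 (0.112) or 4 (0.0853).

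Pdk4 had 0 counts in each of the 4 DMSO libraries and 1, 2, 1 and 3 counts in DS38 replicates 1 to 4. A count of 0 in all DMSO libraries allows up to 3 counts over that group, or 0.0342 CPM, counting error only. The 7 DS38 counts, 0.0798 CPM, were at least 2.34-fold higher, a bound that allows for counting error in DMSO only and takes the 7 counts as they stand. The two-sided exact permutation test of CPM gave p = 0.0286, the smallest that 4 against 4 libraries can give. Adjusted over the 4 exact tests it was 0.0381, but those include both ratios, chosen after their values were seen. The ratio tests, at the same smallest p, lowered that adjusted value, so it is not taken as passing the threshold. Without the filter, edgeR gave an adjusted p = 0.0514, in a fit that called 19.7% of 30932 genes in either direction and 8.99% higher. Genes near silence had more reads with DS38 in general. The 15799 genes with counts that fell under the filter had 1.35 times the summed CPM in DS38, and 69 identifiers were at 0 in every DMSO library and present in every DS38 library, against 7 in the reverse. The part of that pattern in the Ppara and Pdk4 values was not tested.

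Levels of different genes were compared per length, as RPKM, the CPM per 1000 bases of the length column of the count table. In DMSO, Acadm (12.9 RPKM), Hadhb (11.8) and Hadha (11.4) were the most abundant, followed by Acadvl (7.44), Acot2 (6.18), Acadl (5.83), Cpt2 (5.66) and Cpt1a (3.10). Neighbours whose library ranges overlapped were Hadhb and Hadha, and Acadvl, Acot2, Acadl and Cpt2 in a chain. In DS38 the order began with Hadha (13.2 RPKM), Acadm (12.3) and Hadhb (10.4), with no overlap between neighbours, and ended with Cpt1a (4.31) and Acot2 (3.91), whose ranges overlapped. These orders depend on the length used. The length column exceeds the longest coding transcript of Hadhb, 6595 against 2048 bases, of Hadha, 8730 against 4017, of Cpt1a, 7642 against 4317, and of Acadm, 3913 against 2047. Per transcript length, Hadhb came first in both groups, at 37.9 in DMSO and 33.4 in DS38. On that scale Cpt1a in DS38 (7.64) lay above Acadl (7.30) and Cpt2 (6.78), and Acot2 (3.91) came last.

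Among the relatives of the low genes, other members of the family carried the reads. Ppard, the widely expressed PPAR gene, stood at 2.61 RPKM in DMSO and 2.85 in DS38, against 0.0570 and 0.134 RPKM for Ppara and 0.0217 and 0.0956 for Pparg, the receptor of fat cells (6 and 23 counts in all). Ppard did not pass the test (log2 difference 0.12, edgeR adjusted p = 0.125). Of the pyruvate dehydrogenase kinases, Pdk1 (19.8 RPKM), Pdk3 (17.5) and Pdk2 (7.49) were read in DMSO. Pdk4 was not read there and had 7 counts in DS38. Cpt1c, the brain form of carnitine palmitoyltransferase 1, stood at 3.77 RPKM in DMSO, near Cpt1a, with no call (edgeR adjusted p = 0.802). The length column gives Cpt1c 5605 bases, against 2793 for its longest coding transcript, so this nearness also depends on the length used. Cpt1b, the muscle form, had 18 counts in DMSO and 20 in DS38. Of the windows of its longest coding transcript, however, 93% also occur in transcripts of Gm44502. Since the treatment of reads with several matches is not given, these counts may understate Cpt1b, which was not tested.

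Around the 10 genes, 121 further genes in 9 lists of the pathway were examined, of which 96 were tested. Of these, 13 rose, 23 fell and 60 did not pass, a called share of 37.5% beside 39.5% of all genes. Scaling by library totals alone turned this balance to 22 rises and 14 falls, as it moved the share of rises among all changed genes from 47.5% to 64.3%, so the balance between directions is not a firm result. The largest leave-one-out shift came without DS38 replicate 2, with 7 rises and 15 falls, and 15 falls remained without DS38 replicate 3 as well. Of the 36 called genes, 18 lost the call when some single library was left out, and 17 kept it under every alternative that tested them. The examples with a log2 fold change come from those 17 unless another limit is given.

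**Figure D4:**
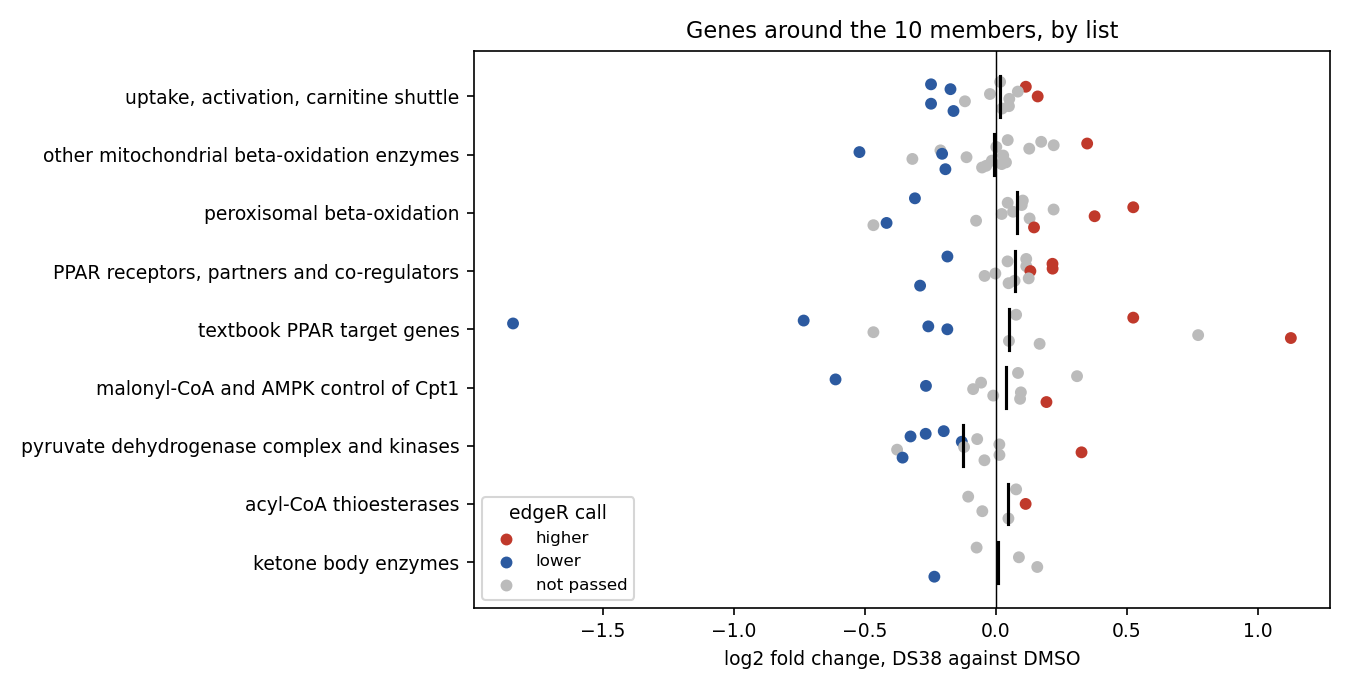
Log2 fold change of DS38 against DMSO for the tested genes of the 9 lists, one row per list. Points are genes, coloured by the edgeR call (red, higher; blue, lower; grey, not past the threshold), and black bars are list medians. Every list holds genes on both sides of 0, and the list of pyruvate dehydrogenase genes has the lowest median, -0.13.

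In the list of other mitochondrial beta-oxidation enzymes, 22.2% of 18 tested genes were called, beside 39.5% of all tested genes. The list gave 1 rise and 3 falls, while 14 did not pass, around a median log2 fold change of -0.01. Only 1 fall was left without DS38 replicate 2 or by library totals alone. Without DMSO replicate 1, 2 rose. Echs1, the short-chain enoyl-CoA hydratase gene, fell 1.44-fold, from 69.3 ± 3.01 to 48.4 ± 2.83 CPM (SD, 4 libraries per group; edgeR log2 fold change -0.52, SE 0.050, adjusted p = 2.09e-07). The riser was Acad11, an acyl-CoA dehydrogenase gene (log2 fold change 0.35, edgeR adjusted p = 0.000676). Of 13 tested genes for fatty acid uptake, activation and the carnitine shuttle, 2 rose and 4 fell, a called share of 46.2%. No rise was left without DMSO replicate 2 or DS38 replicate 2, and 1 without any other single library. Falls numbered 2 without DS38 replicate 2, and 1 without DS38 replicate 3 or by library totals alone. Acsl3, an acyl-CoA synthetase gene that kept its call, fell (log2 fold change -0.25, edgeR adjusted p = 8.82e-05). The carnitine carrier gene Slc25a20, which works between Cpt1a and Cpt2, did not pass (log2 difference 0.05, edgeR adjusted p = 0.526; named after its value was seen).

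Peroxisomal oxidation, which shortens very long chains, had genes moving in both directions. Decr2, the gene of a dienoyl-CoA reductase, rose (log2 fold change 0.38, edgeR adjusted p = 0.00114), while Pecr, a trans-enoyl-CoA reductase gene, fell (log2 fold change -0.42, edgeR adjusted p = 0.000478). Of 14 genes tested in this list, rises numbered 3 and falls 2, and 9 did not pass. The called share was 35.7%, near the 39.5% of all tested genes. Library totals alone gave 6 rises and 2 falls.

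Other textbook PPAR targets did not share one direction. Of 23 listed, 12 were not tested for lack of reads, among them Cyp4a10 and Cyp4a14. Of the 11 tested, 2 rose, 4 fell and 5 did not pass, a called share of 54.5% beside 39.5% of all tested genes. Without DS38 replicate 2, 1 rise and 2 falls were left, and without DMSO replicate 3, 1 rise and 4 falls. Fgf21, which encodes a secreted metabolic hormone and is known also as a target of Atf4 in amino acid stress, fell from 0.810 ± 0.107 to 0.216 ± 0.110 CPM (SD, 4 libraries per group; edgeR log2 fold change -1.84, SE 0.36, adjusted p = 0.000478). Angptl4, a lipase inhibitor gene, also fell (log2 fold change -0.73, edgeR adjusted p = 0.0133) but missed the threshold when DMSO replicate 2 was left out (adjusted p = 0.0520). Among 13 tested receptors, partners and co-regulators, 3 rose, 2 fell and 8 did not pass, a called share of 38.5%. Only 1 rise was left without DMSO replicate 2, DS38 replicate 1 or DS38 replicate 2. By library totals alone 5 rose and 1 fell, and 1 fall was left without DMSO replicate 1 or 4 or without DS38 replicate 1, 2 or 3. Rxrb, a dimer partner of PPAR, fell (log2 fold change -0.29, edgeR adjusted p = 8.51e-05).

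Genes that set malonyl-CoA, the inhibitor of Cpt1a, were tested in full. Of 10, 1 rose, 2 fell and 7 did not pass, a called share of 30% beside 39.5% of all tested genes. Rises numbered 3 by library totals alone and 2 without DMSO replicate 4. Mlycd, which encodes the decarboxylase that removes malonyl-CoA, fell from 7.98 ± 0.549 to 5.201 ± 0.467 CPM (SD, 4 libraries per group; edgeR log2 fold change -0.61, SE 0.11, adjusted p = 0.000164). The AMPK catalytic subunit gene Prkaa2 fell as well (log2 fold change -0.27), and Stk11, the gene of the kinase that activates AMPK, rose (0.19). Acaca and Acacb, the carboxylase genes that make malonyl-CoA, did not pass (edgeR adjusted p = 0.233 and 0.149).

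The list around pyruvate dehydrogenase, the complex that Pdk4 shuts off, also holds its other kinases, its phosphatases and the pyruvate carrier genes. Of its 12 genes, 5 fell, 1 rose and 6 did not pass, a called share of 50% beside 39.5% of all tested genes. By library totals alone, or without DS38 replicate 3, 3 fell and 1 rose. The component genes Dld (log2 fold change -0.27) and Dlat (-0.20) and the activating phosphatase gene Pdp1 (-0.36) fell. The kinase gene Pdk2 rose from 23.7 ± 2.45 to 29.6 ± 1.12 CPM (SD, 4 libraries per group; edgeR log2 fold change 0.33, SE 0.068, adjusted p = 0.000884). Pdk1 did not pass (log2 difference -0.38, SE 0.16, edgeR adjusted p = 0.101). Its means were 154 ± 17.6 CPM in DMSO and 118 ± 21.6 in DS38, with every DS38 library lower, as for 18.8% of all tested genes. Pdk3 did not pass either (log2 difference 0.01, edgeR adjusted p = 0.851). Of 4 tested ketone body genes 25% were called, with 0 rises and 1 fall. That was Oxct1, the gene of the enzyme that activates ketone bodies for use, from 427 ± 9.53 to 363 ± 13.1 CPM (SD, 4 libraries per group; edgeR adjusted p = 0.000117). In 5 of the 18 alternatives, library totals alone and the omission of DMSO replicate 4 among them, 1 rose.

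All 8 markers of granule neuron progenitors and medulloblastoma were tested, of which 4 rose and 2 fell. Over all tested genes, 18.8% were called higher and 20.7% lower. The summed level of the 8 markers was 1449 to 1519 CPM in DMSO and 1567 to 1629 in DS38. Mean levels in DMSO and DS38 were 284 and 432 CPM for Atoh1 and 101 and 165 for Barhl1, but 624 and 557 for Zic1 and 137 and 90.9 for Gli1, a target gene of the hedgehog pathway. Because fatty acid oxidation is known from astrocytes, markers of other cells were read too. The summed level of the 7 astrocyte markers was 121 to 125 CPM in DMSO and 113 to 115 in DS38. Nearly all of it came from Slc1a3, at 119 and 109 CPM, and Aqp4 and Aldh1l1 had at most 4 counts per group. Which cells the Slc1a3 reads came from was not tested. Of the 7 astrocyte markers 4 were tested, with 1 higher and 1 lower by the edgeR test. Mean levels in DMSO and DS38 were 1.83 and 3.07 CPM for Gfap, 1.02 and 0.948 for Aldoc and 0.775 and 0.786 for S100b. The 6 markers of microglia and other immune cells summed to at most 0.172 CPM, with Cx3cr1 at 0 in all libraries. The 6 markers of the oligodendrocyte lineage summed to 84.3 to 90.4 CPM in DMSO and to 61.6 to 66.6 in DS38, with 1 of them lower by the test, and most of the sum came from Pdgfra, at 73.3 and 51.1 CPM. Sox10, which defines that lineage, had 2 counts in each group. The 5 fibroblast markers summed to 2.50 to 3.22 CPM in DMSO and to 3.98 to 4.99 in DS38, and the 5 endothelial markers to 0.883 to 2.61 and 2.24 to 2.54, with 1 higher by the test in each list and Cldn5 at 0 throughout. The part of these markers in the results was not tested.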

How the data were processed

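The authors deposited raw read counts per gene as whole numbers, with a gene length beside them. Per the submitters' processing notes, the tools were edgeR, R 4.1.0, featureCounts, STAR 2.7.9a and Subread 2.0.3. The same notes list 2 builds, GRCh38.p13 and GRCm39, with no role for each. The sources used here do not give the annotation release, the strand setting or how reads with several matches were treated. Symbols were matched for 52083 of 55416 identifiers through GENCODE M21, an earlier build, and all 10 genes were found. Counts were fitted with edgeR 4.0.16 in R 4.3.3 (TMM, filterByExpr with a minimum of 10 counts, robust quasi-likelihood), adjusted over all 15133 genes kept. Each SE was derived from the log2 fold change and its F statistic. The common biological coefficient of variation was 5.53%. The fit was first tested on simulated data.

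Alternatives were DESeq2 1.42.0, limma 3.58.1 (voom), other scalings and filters, the replicate number as a block, a non-robust fit and the omission of each library in turn. Leaving out both libraries numbered 1, a gene length offset and transcript lengths were added after seeing the data. The members and lists were chosen with earlier results of these data known. The rule for named genes was all 10 members and up to 4 genes with the smallest p per list, of which mainly those stable under the alternatives are described, and some are not reported here. Slc25a20, Ppard, Pparg, Cpt1b, Cpt1c, Pdk1, Pdk3 and Acaca fall outside it and were named as relatives or for their role. Promoter sequences are from RefSeq, GRCm38.p6. Exact permutation tests were made for 4 single values.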

Additional observations from a re-analysis of the deposited data

Results flagged for a closer look

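Among the 10 genes and the Hadha to Hadhb ratio, a library that stands far from the other 3 of its group is looked for in 21 groups with counts, and chance gives about 1 in 20. In DMSO, replicate 3 was high for Acadm, at 52.7 CPM against 49.5 to 50.03, and for Hadha, at 106 CPM against 96.0 to 97.5, and it still lay below every DS38 library for Hadha. DMSO replicate 2 had the lowest log2 ratio of Hadha to Hadhb, 0.25 against 0.38 to 0.40. In DS38, replicate 2 was low for Acot2, at 8.09 CPM against 8.74 to 8.79.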

How the results depend on the processing

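Cpt1a, Cpt2, Hadha, Hadhb and Acot2 kept their direction and their call under all 18 alternatives, and Acadm stayed short of the threshold in all of them. The call of Acadl was lost in 7 and held in 11, and Acadvl ranged from 0.12 to 0.26 on the log2 scale (adjusted p-values of 0.0110 to 0.198) over all 18. Acadvl passed in 6: DESeq2's size factors (0.0452), library totals alone (0.0116), a filter of 50 counts (0.0361), the gene length offset (0.0119), and without DMSO replicate 1 (0.0110) or both libraries numbered 1 (0.0137). Between 3 and 5 of the 10 genes were called higher and 2 lower in every alternative. Of the listed pathway genes, 22 rose and 14 fell by library totals alone, 8 rose and 14 fell with replicate 1 of each group omitted (chosen after seeing the data), and 7 to 14 rose and 15 to 25 fell when 1 library was left out. The cause was not tested. The ratio of the most to the least abundant tested gene in DMSO was 4.17 per length, 8.49 without length and 6.91 by the longest coding transcript. With the replicate block, 5594 genes changed against 5980, 3 of the 10 genes rose, 2 fell, and Acadl lost its call (adjusted p = 0.0643). Deviations of same-numbered libraries correlated at -0.0816 to 0.331, and those of differently numbered ones at -0.247 to 0.187. The libraries numbered 1 gave the highest value, and the other same-numbered pairs lay within the range of the differently numbered ones. The numbers were not taken to pair the samples, and what the libraries numbered 1 may share was not tested. With 1 to 15 counts per library in DS38, depth limits any statement on Pdk4 and Ppara, and all intervals cover counting or fitting error only.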
